A study of Homo sapiens with 8 samples.

Results

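G401 cells carrying doxycycline-inducible SMARCB1 were compared with G401 cells carrying doxycycline-inducible GFP, both in the presence of 0.1 µg/ml doxycycline (Dox) for 12 h, by ribosome profiling. The comparison holds 4 of the 8 libraries of the series, 2 labelled SMARCB1 Dox and 2 labelled GFP Dox, and it was chosen by these labels and not by measured values. The other 4 libraries come from the same lines kept with DMSO, the solvent control, for the same time (SMARCB1 DMSO and GFP DMSO, 2 libraries each), and they were used to ask which line differences were narrower or wider in the induced state. G401 is an established line from a rhabdoid tumor of the kidney without functional SMARCB1, so all 4 groups share that loss apart from the transgene. GFP in the control line stands under the same Tet-On system, cells of several plates were pooled per condition, and the experiment was done in duplicate. Nothing in the sources used here says whether each line is a clone or a pool. Since each transgene is present in a single line, the transgene and every other difference between the lines cannot be told apart from these libraries.

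SMARCB1 is a core subunit of the mSWI/SNF chromatin remodeling complexes, which move and evict nucleosomes and are needed at many enhancers of developmental genes. Its loss defines rhabdoid tumors, which arise in the kidney, brain and soft tissues of young children. In ribosome profiling, messenger RNA fragments protected by ribosomes are sequenced, so the reads on a coding sequence follow both the amount of the messenger and how heavily ribosomes occupy it. No RNA-seq library was used here, and a change in messenger level cannot be told apart from a change in its translation.

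Counts on coding sequences came to 11407983 and 6005867 in the SMARCB1 Dox libraries and to 6933132 and 6429574 in the GFP Dox libraries, against 5924443 to 14000039 for the 4 DMSO libraries. Levels are given as counts scaled to a common library total (CPM), in the order replicate 1, replicate 2. GFP Dox replicate 1 stood apart from the rest, with 56.4% of its entries on reads of more than 1 alignment against 25.6% to 39.7% in the other 7 libraries and a scaling factor of 0.872 against 0.937 to 1.05. The total count of calls, most list counts, and named genes whose call was lost without this library are therefore also given without it. A list count that stands alone includes this library. Without it the count filter was applied anew, so some lists then held more tested members, as with 14 integrins and cadherins in place of 12. The cells' own markers VIM, KRT8, KRT18 and SPARC were high in every library, whereas 3 further mesenchymal markers (FN1, CD44 and CDH2) were at or near 0 throughout. Summed markers of epithelial cells reached at most 3.31 CPM and those of kidney tubule cells at most 1.4 CPM. Endothelial markers summed to 24.8 to 49.8 CPM over the 8 libraries, nearly all of it EGFL7, and neural markers to at most 11.2 CPM. The 8 hematopoietic markers summed to 4.1 and 6.82 CPM in SMARCB1 Dox and to 7.61 and 14.8 CPM in GFP Dox, nearly all of it CORO1A, with PTPRC, CD3E and CD14 at 0.

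The induced transgene separated the groups as the labels state. SMARCB1 (ENSG00000099956, chromosome 22 of GRCh38, 23786931 to 23838009, plus strand) had 214 and 277 CPM in the SMARCB1 Dox libraries. It had 0 counts in both GFP Dox libraries and also in all 4 DMSO libraries. The counts hold human genes, so the induction of GFP was not checked. A count of 0 allows up to 3 counts, and against that limit over the pooled GFP Dox libraries the level in SMARCB1 Dox was at least 1006-fold higher. Such limits and intervals cover counting error only, since they use pooled counts and leave out the spread between libraries. With edgeR, no other tested member of the complex was called. Of 25 mSWI/SNF subunits with enough counts to be tested, 24 did not pass the test between the lines with Dox, among them the ATPase SMARCA4 (log2 difference -0.54) and the core subunit SMARCC1 (-0.56). PHF10, a subunit of the PBAF form, had an adjusted p of 0.0783 with edgeR, and DESeq2 called it lower (log2 -1.01, adjusted p = 0.03).

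With Dox, 675 of the 11097 genes tested differed between the lines, 6.08% of all genes. A gene is called where its difference exceeds 2-fold and its p from the quasi-likelihood test of edgeR, adjusted by the Benjamini-Hochberg method, is under 0.05. All adjusted p-values of the report come from that test unless DESeq2 is named. Occupancy was higher in the SMARCB1 line for 344 genes (3.1%) and lower for 331 (2.98%). In 674 of the 675, both libraries of a line lay beyond both of the other, which holds for 46.1% of all genes tested. In 608 of the 675, the 4 libraries of the SMARCB1 line, DMSO included, lay beyond the 4 of the GFP line, as they did for 17.6% of all genes. The lower group held 0 counts for 62 of the called genes and 1 to 3 pooled counts for 57, and for these a bound or a ratio with its exact 95% interval replaces the fitted fold change. Without GFP Dox replicate 1, 565 genes were called, and 490 of the 675 were still called in the same direction. Leaving out SMARCB1 Dox replicate 1 or 2 gave 348 and 379 calls, and leaving out GFP Dox replicate 2 gave 1372, the spread of the lone remaining library being assumed equal to that of the other groups.

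The genes that were higher in the SMARCB1 line with the smallest p-values encode a basement membrane chain, guidance and adhesion molecules, and signaling proteins. LAMB1, the laminin beta-1 chain, had 389 and 429 CPM in SMARCB1 Dox against 0 and 0.296 CPM in GFP Dox. Its pooled ratio was 2580 (95% interval 714 to 21306), and the SMARCB1 DMSO libraries already had 227 and 206 CPM. ALPK2, an atypical protein kinase, had 403 and 348 CPM against 3.81 and 3.4 CPM, a 104-fold difference (log2 6.70 ± 0.31 SE, adjusted p = 9.55e-09). SEMA3A, a secreted axon guidance cue, had 412 and 445 CPM against 4.14 and 8.13 CPM (log2 6.11 ± 0.35 SE, adjusted p = 8.15e-08). For all 3 genes the lines were far apart, with no overlap of libraries in either state.

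The other leading genes of this direction had lower levels and the same separation. NT5E, the ecto-enzyme CD73 that makes adenosine, had 49.9 and 45.8 CPM against 0.165 and 0.296 CPM, a pooled ratio of 207 (95% interval 70.6 to 1005). COLEC12, a scavenger receptor with a collagen domain, had 85.8 and 112 CPM against 3.31 and 1.48 CPM, a 41.5-fold difference. ADGRG6, an adhesion G protein-coupled receptor known for Schwann cell myelination, had 261 and 234 CPM against 4.96 and 5.92 CPM, a 45.3-fold difference. PAG1, a membrane adaptor that recruits Csk, was 30.3-fold higher, MAP3K20, a kinase that senses stalled ribosomes, was 30-fold higher and UTRN, the dystrophin relative utrophin, was 12.8-fold higher. TUBB2B, a beta-tubulin, was 16.1-fold higher, but reads that also fit the near-identical TUBB2A are left out of the counts, so this value is uncertain. The list is completed by COL4A6, described with the collagens, and SMARCB1 itself.

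The genes that were lower in the SMARCB1 line included a Wnt antagonist, fibrillar matrix and a laminin chain. RFPL4B, a member of a gene family with a RING finger, was the gene with the smallest p-value of all. It had 0 and 0.159 CPM in SMARCB1 Dox against 613 and 482 CPM in GFP Dox, a pooled ratio of 9926 (95% interval 1781 to 392096) in favor of the GFP line. DKK1, the secreted antagonist of Wnt coreceptors, had 0.167 and 0.476 CPM against 109 and 107 CPM (log2 -8.54 ± 0.47 SE, adjusted p = 7.45e-08). FBN2, fibrillin-2 of elastic microfibrils, had 0.0837 and 0 CPM against 111 and 77.5 CPM, a pooled ratio of 1705 (95% interval 305 to 67414).

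LAMA4, the laminin alpha-4 chain, had 4.52 and 5.71 CPM against 428 and 248 CPM, a 66.9-fold difference. The GFP Dox libraries differed by more among themselves here than the SMARCB1 Dox libraries did, yet no library came near the other line. COL1A1, the main fibrillar collagen chain, had 39.2 and 53.7 CPM against 1210 and 1480 CPM, 29-fold lower in the SMARCB1 line (log2 -4.86 ± 0.31 SE, adjusted p = 1.8e-07). CP, the copper-binding ferroxidase ceruloplasmin, was 19.8-fold lower, LZTS1, a leucine zipper protein proposed as a tumor suppressor, 76.2-fold lower, and RBMS1, an RNA-binding protein, 45.7-fold lower. TPD52L1 (46-fold) and the secreted protease HTRA1 (55.4-fold) were lower as well. RIMS2, a scaffold of synaptic release sites, had 0.167 and 0 CPM against 52.1 and 35.2 CPM, and COL9A1, a chain of cartilage collagen IX, was 147-fold lower.

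**Figure D1:**
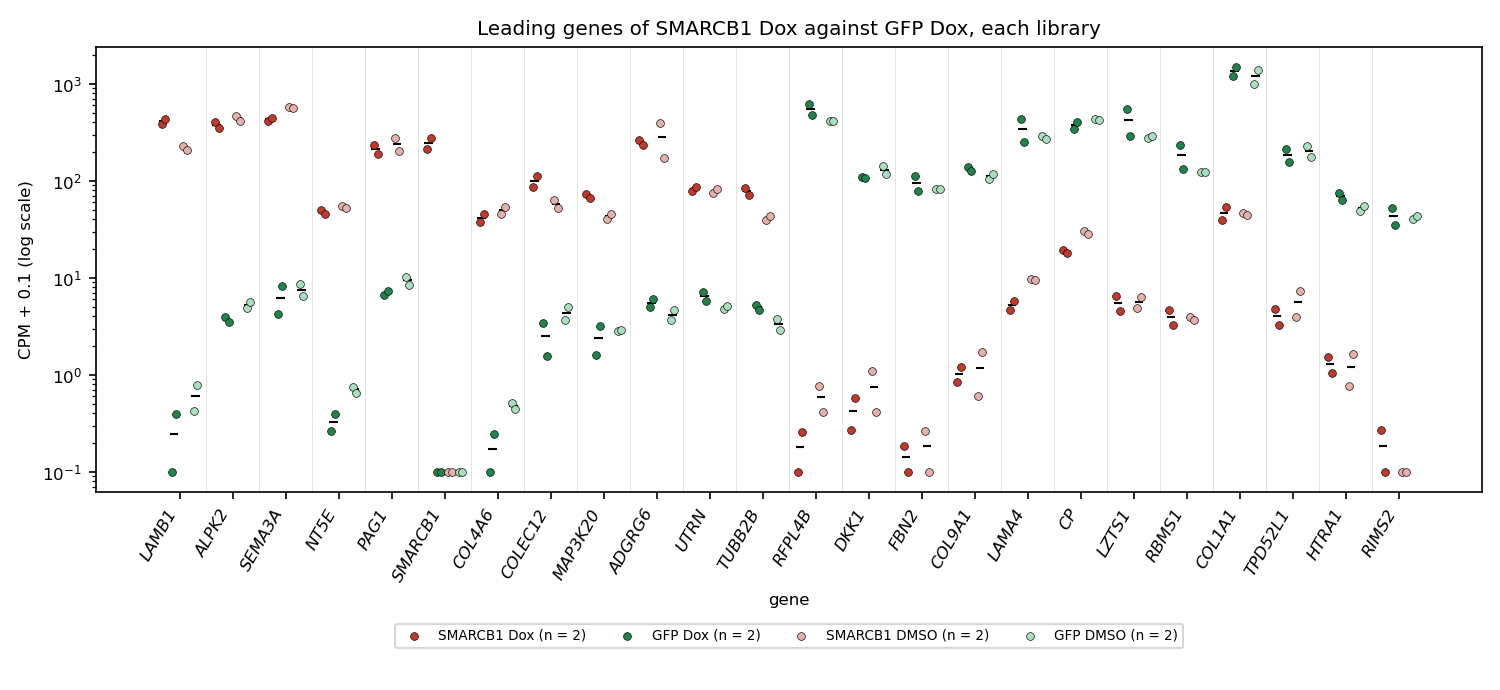
CPM + 0.1 on a log axis for the 12 genes higher (left) and the 12 lower (right) in SMARCB1 Dox than in GFP Dox by the naming rule, with 1 point per library, 2 libraries per group, and a bar at each group's mean. SMARCB1 had counts in the SMARCB1 Dox libraries alone. For the other genes, the pale DMSO points of each line sit nearer to the Dox points of the same line than to the other line. COL1A1 had 39.2 and 53.7 CPM in SMARCB1 Dox and 46.2 and 44.4 CPM in SMARCB1 DMSO. The points of LAMB1 are further apart, at 389 and 429 CPM in SMARCB1 Dox and 227 and 206 CPM in SMARCB1 DMSO.

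Extracellular matrix genes lay far out on both sides. Laminins are trimers of an alpha, a beta and a gamma chain that build basement membranes. Of 9 laminin chains tested, LAMB1 was higher in the SMARCB1 line and LAMA4 was among those lower, with a median log2 difference of 0.23 over the 9 against -0.01 over all genes. Per kilobase of coding sequence, the mean level of LAMB1 in SMARCB1 Dox was 66.9 CPM, beside 92.6 CPM for LAMC1 and 12.6 CPM for LAMA5. In GFP Dox on the same scale, LAMB1 was at 0.0242 CPM, LAMC1 at 143 CPM, LAMA4 at 58.1 CPM and LAMB2, the other common beta chain, at 29.4 CPM. LAMC1 and LAMB2 did not pass the test (log2 -0.62 for each).

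Of 19 collagen chains tested, 3 rose above and 4 fell below the GFP line, 36.8% against the 6.08% of all genes. Members near silent in 1 line, such as COL4A6 and COL16A1, passed the count filter through the other line. The lists were also chosen with earlier results known, so the share of this and every other list is a description and not a test. COL4A5 and COL4A6, the alpha-5 and alpha-6 chains of basement membrane collagen IV, were the strongest of the higher group. COL4A5 had 78.5 and 77.7 CPM against 0.496 and 1.48 CPM, a 76.4-fold difference (log2 6.26 ± 0.57 SE, adjusted p = 6.69e-06). COL4A6 had 37.6 and 44.9 CPM against 0 and 0.148 CPM, a pooled ratio of 513 (95% interval 91.9 to 20304). COL5A2, a chain of fibrillar collagen V, was 2.23-fold higher at a much higher level, 599 and 840 CPM against 301 and 343 CPM.

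The lower collagens were COL1A1, COL9A1, COL16A1 and COL3A1. COL16A1, a collagen associated with fibrils, had 0.167 and 0.159 CPM against 10.4 and 10.1 CPM, a pooled ratio of 62.3 (95% interval 20.8 to 306). COL3A1, the chain of fibrillar collagen III, had 723 and 1053 CPM against 1834 and 1726 CPM and lay just past the 2-fold threshold (SE 0.27 on the log2 scale, adjusted p = 0.0422). COL1A2, the partner chain of COL1A1, was not called, with 742 and 1388 CPM against 687 and 1094 CPM (log2 0.26 ± 0.36 SE), and the libraries overlapped. Without GFP Dox replicate 1, 2 collagen chains were called higher and 3 lower, and COL5A2 and COL3A1 had adjusted p-values of 0.0503 and 0.0631.

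**Figure D2:**
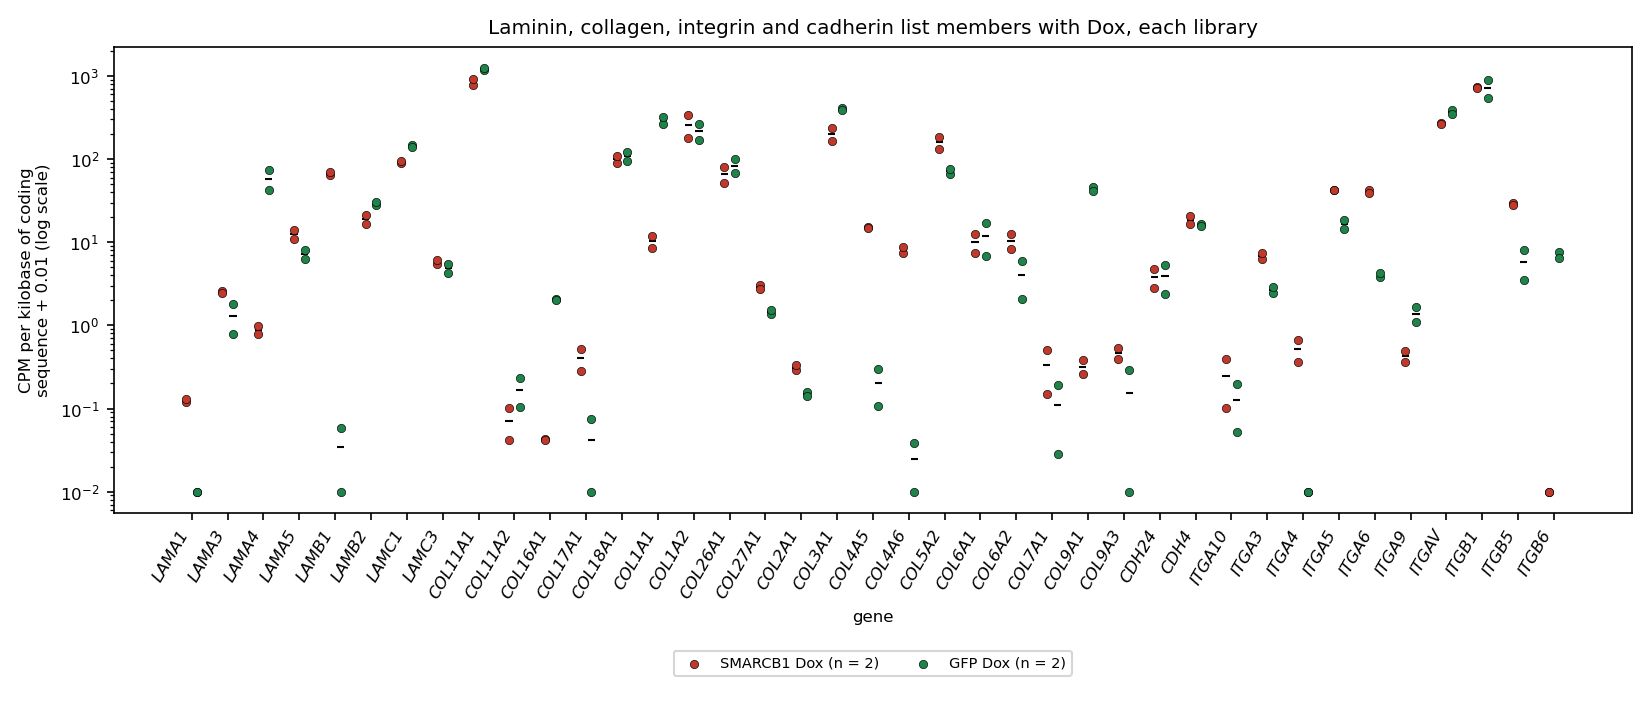
CPM per kilobase of coding sequence + 0.01, on a log axis, for tested chains of the laminin, collagen, and integrin and cadherin lists in the SMARCB1 Dox and GFP Dox libraries (1 point per library, 2 per group, bar at the mean). LAMB1, COL4A5, COL4A6 and ITGA6 sit higher in SMARCB1 Dox and LAMA4, COL1A1, COL9A1 and ITGB6 higher in GFP Dox, while ITGB1 is level at means of 725 and 719 CPM per kilobase.

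Promoter sequences of genes at the extremes are shown because these genes were near silent in 1 line. Each is the 250 bases before the gene start in RefSeq on GRCh38.p14, read 5′ to 3′ on the gene's strand. Capitals mark matches, on either strand, to TATAAA (the TATA box), CCAAT (the CCAAT box), CACGTG (an E-box), TGANTCA (an AP-1 site) or GGAATG (a TEAD site). These 5 motifs do not overlap one another in the sequences printed. COL4A6 (chrX:108439459-108439708, minus strand) and COL4A5 (chrX:108439588-108439837, plus strand) stand head to head, with 379 bases between their starts, so 121 bases belong to both windows on opposite strands. The pair of CCAAT boxes at the beginning of the COL4A5 window is the first pair of the COL4A6 window read from the other strand.
COL4A6 promoter: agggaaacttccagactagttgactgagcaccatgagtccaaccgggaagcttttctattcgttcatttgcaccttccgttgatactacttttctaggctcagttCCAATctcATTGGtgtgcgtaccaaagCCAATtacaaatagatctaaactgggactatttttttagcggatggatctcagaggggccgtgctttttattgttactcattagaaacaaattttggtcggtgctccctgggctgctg
COL4A5 promoter: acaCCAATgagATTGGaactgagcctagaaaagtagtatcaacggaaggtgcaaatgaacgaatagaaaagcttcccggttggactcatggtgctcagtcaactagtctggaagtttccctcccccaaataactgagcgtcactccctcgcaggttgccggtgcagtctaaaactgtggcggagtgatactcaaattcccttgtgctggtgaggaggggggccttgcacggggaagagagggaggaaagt
The LAMB1 window (chr7:108003162-108003411, minus strand) has 28 CpG dinucleotides and 70.4% GC and none of the 5 motifs. The DKK1 window (chr10:52314031-52314280, plus strand) has a TATA box and a TEAD site. The RFPL4B window (chr6:112347080-112347329, plus strand) has a TATA box, a CCAAT box and only 5 CpG dinucleotides, where the median over 9103 tested genes with a window is 22.
LAMB1 promoter: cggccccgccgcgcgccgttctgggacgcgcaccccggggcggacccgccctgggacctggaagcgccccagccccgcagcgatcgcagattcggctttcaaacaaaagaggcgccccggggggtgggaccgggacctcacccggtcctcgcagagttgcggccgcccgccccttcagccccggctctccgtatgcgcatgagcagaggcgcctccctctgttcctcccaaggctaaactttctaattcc
DKK1 promoter: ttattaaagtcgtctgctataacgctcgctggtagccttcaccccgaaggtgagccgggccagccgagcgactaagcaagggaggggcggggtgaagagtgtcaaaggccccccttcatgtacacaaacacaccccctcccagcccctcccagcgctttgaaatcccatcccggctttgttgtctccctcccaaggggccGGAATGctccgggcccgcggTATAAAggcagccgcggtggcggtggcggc
RFPL4B promoter: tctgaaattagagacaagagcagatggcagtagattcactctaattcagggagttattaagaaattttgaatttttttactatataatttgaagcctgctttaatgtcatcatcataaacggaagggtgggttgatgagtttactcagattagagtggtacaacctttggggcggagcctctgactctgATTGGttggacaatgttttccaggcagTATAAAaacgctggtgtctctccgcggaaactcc

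A match to these letters is a description and not a bound site. A TATA box stood in 5.06% of the windows of tested genes (11.1% of all 27305 windows), in 7.6% of the 263 windows of genes called higher with Dox and in 7.66% of the 248 of genes called lower. A CCAAT box stood in 35.9% of tested windows (33% of all), 29.3% of those called higher and 35.9% of those called lower. The AP-1 letters were found in 3.41% of tested windows (6.6% of all), 7.6% of those called higher and 4.84% of those called lower. The TEAD letters were found in 9.05% of tested windows (11.9% of all), 11.4% and 12.5%, and the E-box in 9.29% (6.49% of all), 7.6% and 10.5%.

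Among 19 fibrillins and matrix glycoproteins tested, 4 were higher and 2 lower (31.6% against 6.08% of all genes), counts that were the same without GFP Dox replicate 1. SPARC, a collagen-binding glycoprotein, had 1936 and 1898 CPM in SMARCB1 Dox against 335 and 167 CPM in GFP Dox (log2 2.93 ± 0.35 SE, adjusted p = 7.76e-05). THBS1, LTBP1 and CCN1, which regulate TGF-beta availability or cell adhesion, were 2.25-fold, 2.37-fold and 2.45-fold higher. LTBP2, a microfibril protein, had 38.5 and 52.6 CPM against 255 and 286 CPM and was 5.96-fold lower, beside FBN2.

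Receptors for the matrix were divided too. Integrins are heterodimers that bind laminins, collagens and fibronectin, and cadherins join cells to each other. Of 12 members tested, 4 were higher and 1 was lower, 41.7% against 6.08% of all genes, and without GFP Dox replicate 1 these were 3 and 1. ITGA6, an alpha chain of laminin receptors, had 149 and 137 CPM against 13.2 and 15.1 CPM, a 10.1-fold difference (log2 3.33 ± 0.27 SE, adjusted p = 1.94e-06). ITGB5 had 73.3 and 69.4 CPM against 8.77 and 20.1 CPM (log2 2.30 ± 0.37 SE), and ITGA5 and ITGA3 were 2.55-fold and 2.57-fold higher. The adjusted p of ITGA3 was 0.0665 without GFP Dox replicate 1. ITGB6, the beta chain of an epithelial integrin that activates TGF-beta, had 0 counts in all 4 libraries of the SMARCB1 line against 18.2 and 15.4 CPM in GFP Dox, and was at least 102-fold lower. The common chains ITGB1 and ITGAV did not pass the test (log2 0.01 and -0.45).

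Semaphorins, slits and netrins steer axons and vessels through plexin, neuropilin and other receptors. Of 31 members tested, 5 were higher and 1 was lower, 19.4% against 6.08% of all genes, and the counts were the same without GFP Dox replicate 1. Beside SEMA3A, SEMA3D had 53.3 and 72.9 CPM against 3.97 and 0.74 CPM, a 27.2-fold difference, and SEMA3E had 451 and 385 CPM against 128 and 76.9 CPM, a 4.09-fold difference. NRP2, a receptor subunit for class 3 semaphorins, had 17.9 and 17.3 CPM against 0.165 and 0.74 CPM (log2 5.20 ± 0.60 SE, adjusted p = 5.76e-05). NTN4, a netrin that binds laminin, was 2.5-fold higher. SEMA3B went the other way, with 5.35 and 6.02 CPM against 38.1 and 50 CPM (log2 -2.96 ± 0.34 SE).

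Wnt proteins signal through Frizzled receptors and LRP coreceptors to beta-catenin, R-spondin receptors strengthen the signal and Dickkopf proteins block it. Of 25 members tested, 4 were higher and 2 lower, 24% against 6.08% of all genes, and without GFP Dox replicate 1 these were 2 and 2. LGR4, an R-spondin receptor, had 50.5 and 52.9 CPM against 3.31 and 2.07 CPM (log2 4.27 ± 0.39 SE, adjusted p = 6.84e-06). The receptor FZD7 had 5.19 and 9.83 CPM against 0.827 and 0.887 CPM, AXIN2, a feedback target of the pathway, had 19.8 and 17.3 CPM against 1.65 and 6.95 CPM, and the DKK1 receptor KREMEN1 was 3.59-fold higher. Without GFP Dox replicate 1, FZD7 and AXIN2 had adjusted p-values of 0.053 and 0.0749. The ligand WNT11 had 1.26 and 0.793 CPM against 23.2 and 31.2 CPM, a 25.1-fold difference, in the same direction as DKK1.

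In the TGF-beta family, 2 of 28 members tested were higher and 2 lower, 14.3% against 6.08% of all genes, counts unchanged without GFP Dox replicate 1. TGFBR3, the coreceptor betaglycan, had 51 and 54.7 CPM against 7.11 and 5.92 CPM and FSTL1, a follistatin-like secreted protein, 49.8 and 56.1 CPM against 10.1 and 8.28 CPM. BMP7, a ligand needed for kidney development, had 0 counts in all 4 libraries of the SMARCB1 line against 22.7 and 28.2 CPM in GFP Dox, at least 156-fold lower. BAMBI, a decoy receptor, was 4.59-fold lower.

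Of 29 receptor tyrosine kinases tested, 2 were higher and 5 lower, 24.1% against 6.08% of all genes. Without GFP Dox replicate 1 these were 1 and 3. AXL, a receptor for GAS6, had 95 and 91.8 CPM against 37.4 and 35.5 CPM (log2 1.36 ± 0.23 SE, adjusted p = 0.0017). PDGFRA, a receptor for platelet-derived growth factor, had 1.67 and 3.17 CPM against 56.4 and 37.7 CPM, a 20.3-fold difference, and ERBB3, a receptor for neuregulin, had 1.67 and 3.01 CPM against 12.9 and 16.3 CPM. EPHB3 was 2.74-fold lower. CSF1R, EPHA5 and EPHB1 were called on few counts and had adjusted p-values of 0.154, 0.118 and 0.112 without GFP Dox replicate 1. EPHB1 had 3.51 and 1.59 CPM against 0 counts in GFP Dox. The IGF list had 9 members tested, which were IGF-binding proteins, the receptor IGF2R and the messenger-binding proteins IGF2BP1, IGF2BP2 and IGF2BP3. The ligands IGF1 and IGF2 had too few counts to be tested. Among the 9, 2 were higher and 0 lower, 22.2% against 6.08% of all genes. IGFBP7 had 673 and 447 CPM against 51.8 and 30 CPM and IGFBP3 147 and 131 CPM against 59.2 and 64.5 CPM.

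Transcription factors of the body plan were mostly higher where they differed. Of 26 HOX genes tested, 4 were higher and 0 lower, 15.4% against 3.1% of all genes called higher, and without GFP Dox replicate 1 these were 3 and 0. They were HOXB6, HOXB8 and HOXB9 of the HOXB cluster, and HOXD9, whose adjusted p was 0.131 without that library. HOXB7, which lies between HOXB6 and HOXB8, had 2.84 and 4.76 CPM against 1.16 and 2.37 CPM and did not pass (log2 1.07 ± 0.66 SE, adjusted p = 0.417). HOXB9 had 17.2 and 18.2 CPM against 2.15 and 2.51 CPM (log2 2.92 ± 0.41 SE), HOXB8 was 6.16-fold and HOXB6 4.72-fold higher. Of 34 other developmental factors, OSR2, FOXC2, FOXD1, DLX1 and DLX2 were higher and PAX2 and MEF2C lower (20.6% against 6.08% of all genes). OSR2 had an adjusted p of 0.144 without GFP Dox replicate 1. PAX2, which directs kidney formation, had 0.251 and 0.159 CPM against 6.29 and 8.87 CPM, and MEF2C, a muscle and neural crest factor, had 0 counts in SMARCB1 Dox against 10.3 and 7.25 CPM. FOXD1, a factor of the kidney stroma, had 7.11 and 9.99 CPM against 1.82 and 0.592 CPM.

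Muscle and contractile genes were tested as markers of differentiation, and 3 of 31 were higher and 1 was lower, 12.9% against 6.08% of all genes. DMD, dystrophin, had 154 and 174 CPM against 25.6 and 21.7 CPM (log2 2.79 ± 0.26 SE). The myosin heavy chains MYH2 (16 and 28.1 CPM against 0 and 0.148 CPM) and MYH8 (7.28 and 12.2 CPM against 0 counts) were higher. They belong to a family of similar genes, and reads that fit more than 1 member are left out, so these levels are uncertain. TNNC2, fast skeletal troponin C, was 4.45-fold lower.

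Of 24 cholesterol synthesis genes tested, 4 had a positive line difference with Dox and 3 were called lower (12.5% against 2.98% of all genes), STARD4 and HMGCS1 among them. The median log2 difference was -0.47. Without GFP Dox replicate 1 the median was -0.62 and 2 were called. STARD4, a sterol carrier, had 1.59 and 0.634 CPM in SMARCB1 Dox against 8.77 and 11.2 CPM in GFP Dox. HMGCS1, an enzyme early in the pathway, was 2.12-fold lower, and its adjusted p rose to 0.173 without GFP Dox replicate 1.

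Of 24 targets of the stress factor ATF4 tested, 4 were higher and 0 lower (16.7% against 6.08% of all genes), and 3 and 0 without GFP Dox replicate 1. TRIB3, a pseudokinase, had 42.8 and 39.8 CPM against 11.1 and 8.58 CPM (log2 2.07 ± 0.30 SE), STC2, a secreted glycoprotein, had 11.7 and 7.45 CPM against 0 counts, and VLDLR and the cystine transporter SLC7A11 were 17.5-fold and 2.73-fold higher, SLC7A11 with an adjusted p of 0.18 without that library. In arginine and polyamine metabolism, 2 of 16 were higher and 1 was lower (18.8% against 6.08% of all genes). ASS1, the urea cycle enzyme that makes argininosuccinate, had 36.4 and 49.3 CPM against 17.2 and 18.9 CPM (log2 1.24 ± 0.28 SE), with an adjusted p of 0.015 that became 0.0594 without GFP Dox replicate 1. Spermine synthase, SMS, had 1067 and 901 CPM against 197 and 235 CPM, and CPS1, the first enzyme of the urea cycle, was 5.23-fold lower.

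Of 22 interferon-stimulated genes tested, 0 were higher and 4 lower, 18.2% against 2.98% of all genes called lower, and without GFP Dox replicate 1 these were 0 and 3. IFITM2, a membrane protein that blocks viral entry, had 7.45 and 6.18 CPM against 105 and 41.1 CPM (log2 -3.40 ± 0.45 SE). Reads that fit more than 1 member of the near-identical IFITM family are left out, so this value is uncertain. IFI35 and IFI6 were 2.22-fold and 2.04-fold lower, and the adjusted p of IFI6 was 0.0811 without GFP Dox replicate 1.

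Cell cycle and Polycomb genes were called at shares near that of all genes. Among 15 CDK inhibitors, cyclins and partners, CCNE2, cyclin E2, was called (6.67% of the list against 6.08% of all genes), with 17.1 and 18.1 CPM against 4.96 and 7.99 CPM, and its adjusted p of 0.0246 became 0.124 without GFP Dox replicate 1. CDKN1A, the CDK inhibitor p21, and CCND1, cyclin D1, did not pass the test (log2 -0.49 and -0.17). Of 26 Polycomb subunits, PHC2 (2.93-fold) and PCGF5 (1.84 and 3.8 CPM against 0 counts) were higher (7.69%), and none was called without GFP Dox replicate 1. EZH2, the catalytic subunit that is a drug target in rhabdoid tumors, had a log2 difference of -0.53 and did not pass. Of 76 cytosolic ribosomal proteins and 13 mitochondrially encoded genes, 0 were called in either direction by edgeR or DESeq2, and 3 and 0 of them had an unadjusted p below 0.05 with edgeR. The median log2 difference of the ribosomal proteins was 0.25, and it was -0.13 without GFP Dox replicate 1.

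**Figure D3:**
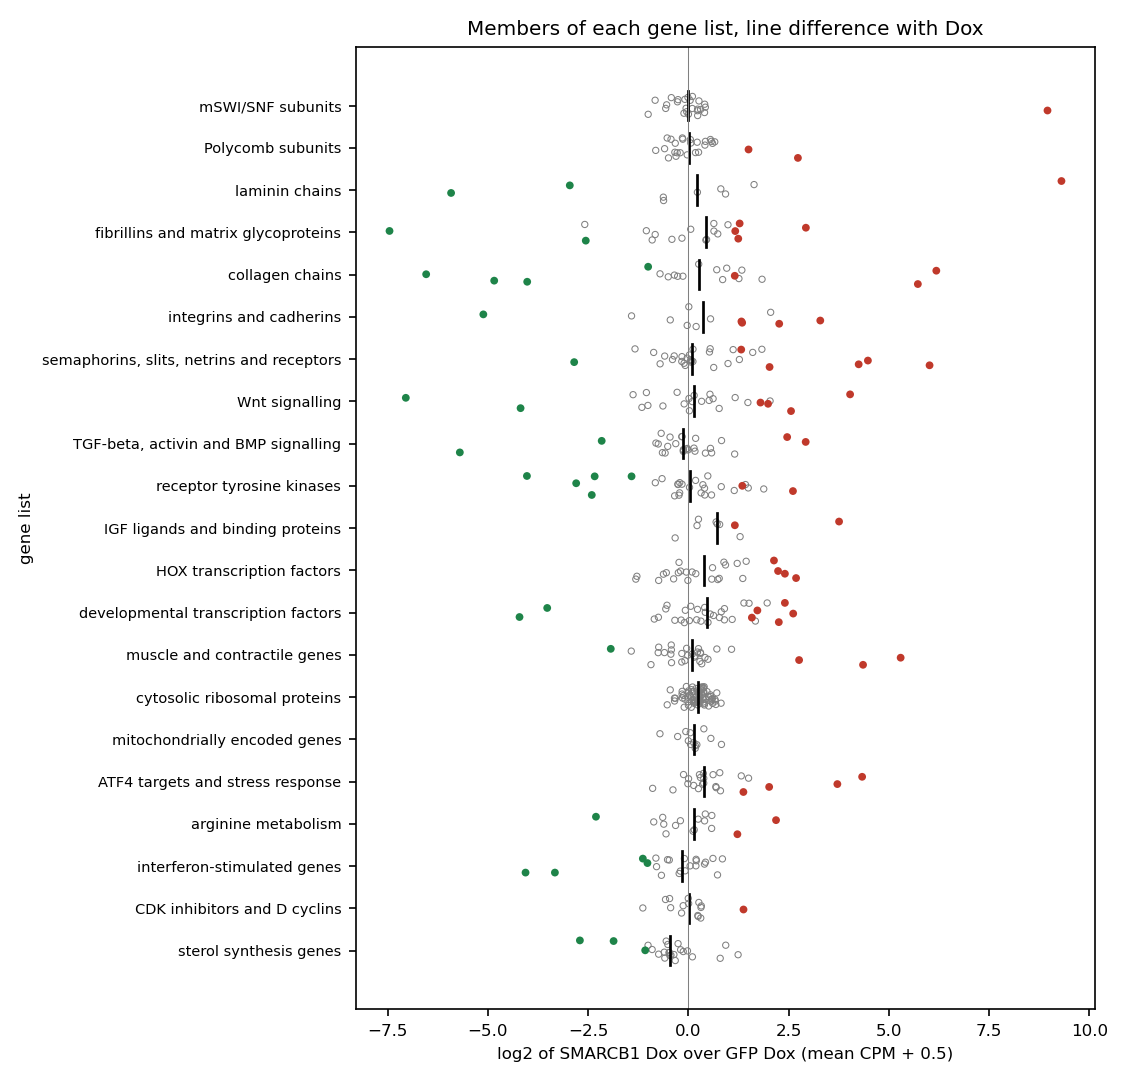
The log2 ratio of SMARCB1 Dox over GFP Dox, from mean CPM + 0.5, for every tested member of each gene list (1 point per gene, vertical offsets for legibility only), with called genes filled in red where higher and green where lower, and a bar at each list's median. List medians run from -0.47 for sterol synthesis to 0.72 for the IGF list, while called members of the matrix, guidance, Wnt and receptor lists lie far out on both sides, and no ribosomal protein is filled.

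Called genes often had called neighbors on the chromosome, a property looked for after the values were seen. Among 11052 pairs of tested genes that are adjacent on a chromosome, the next gene was called in 12.6% of cases after a called gene and in 5.67% after a gene that was not called. In 85 pairs both genes were called, and in 73 of them (85.9%) in the same direction. With DMSO, both genes of 66 pairs were called and 57 shared a direction. Overlapping genes and families of similar sequence can share reads and are not separated in these counts.

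Several of the strongest genes stood beside each other. RFPL4B and LAMA4, both lower, are adjacent tested genes on chromosome 6 with 92.4 kb between them, and ITGB6 and RBMS1, both lower, are adjacent on chromosome 2 with 71.8 kb between them. SEMA3E, SEMA3A and SEMA3D are consecutive tested genes on chromosome 7 (83363238 to 85187056) and all were higher. The longest run was of 5 consecutive tested genes on chromosome 2 (172084740 to 173268015), DLX1, DLX2, ITGA6, PDK1 and MAP3K20, all higher by log2 1.66 to 4.91, and 4 of the 5 were also called with DMSO. COL3A1 and COL5A2, adjacent on the same chromosome with 19.2 kb between them, moved in opposite directions.

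Most line differences in the induced state were present with DMSO. Without induction, 552 genes (4.97%) differed between the lines, 276 in each direction, and the libraries of the lines did not overlap for 44.8% of all genes. Of the 675 genes called with Dox, 419 were called in the same direction with DMSO, which is 62.1% of the calls with Dox, 75.9% of those with DMSO and 3.78% of all genes, and 0 were called in opposite directions. The 419 divide into 210 higher and 209 lower. Of the 256 genes called with Dox and not with DMSO, 238 had the same sign with DMSO and 67 of these were past 2-fold there. The line differences in the 2 states share no library, and over the 11097 genes, which are not independent, they had a Pearson correlation of 0.768.

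**Figure D4:**
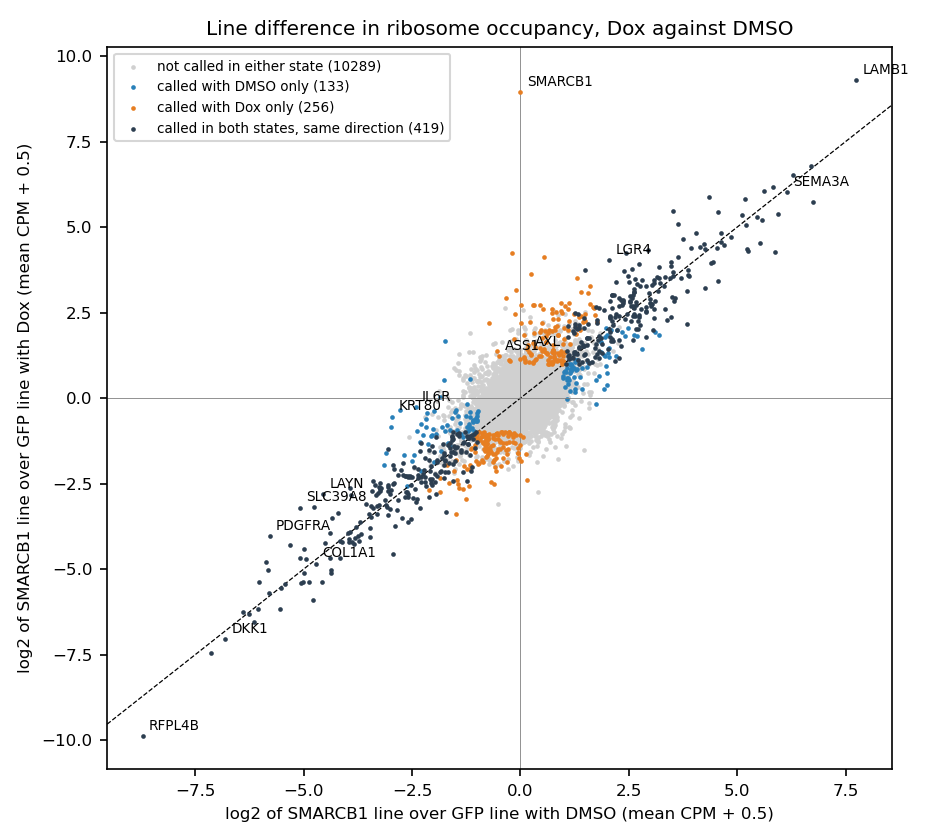
Each point is a gene, with the log2 ratio of the SMARCB1 line over the GFP line (mean CPM + 0.5) under DMSO on the x axis and under Dox on the y axis, and a dashed line where both are equal. The 419 genes called in both states in the same direction (dark) follow the dashed line over its whole length, SMARCB1 stands alone above 0 on the x axis, and IL6R, KRT80 and SLC39A8 lie nearer to 0 with Dox than with DMSO.

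To ask which line differences were narrower or wider with Dox, genes were taken whose difference averaged over both states was called (816 genes, 7.35%, with 432 or 3.89% higher and 384 or 3.46% lower) and had the same sign in both (814), so that neither state alone chose them. For 608 of these every group had more than 3 pooled counts. The difference was wider with Dox for 343 of the 608 (56.4%) and narrower for 265, with median absolute log2 differences of 1.91 with Dox and 1.74 with DMSO. This share was not stable: over all 814 genes it was 56.8%, and leaving out single libraries moved it from 49% to 64.9%. The test of each gene's difference between the states called 0 genes with edgeR and 1, SMARCB1, with DESeq2. With edgeR, 443 genes had an unadjusted p below 0.05 and 555 would be expected by chance. The median half-width of its 95% interval over the 608 genes was 1.13 on the log2 scale, and the interval lay within a 2-fold change either way for 53 of them (8.72%). For most genes, then, neither a change nor its absence could be shown at this depth and replication.

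The rest of the account of widening and narrowing describes the genes with the smallest unadjusted p of that test, and all of them had an adjusted p between 0.977 and 0.981. Of the 73 with an unadjusted p below 0.05 among the 608, 46 were wider and 27 narrower. In 38 of the 46 and 19 of the 27, the mean level moved further between Dox and DMSO in the SMARCB1 line than in the GFP line (82.6% and 70.4%), which holds for 371 of the 608 (61%).

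Among the wider genes, LGR4 had 50.5 and 52.9 CPM in SMARCB1 Dox against 18.5 and 11.3 CPM in SMARCB1 DMSO, while the GFP line stayed between 2.07 and 3.61 CPM. Its line difference was log2 4.27 with Dox and 2.17 with DMSO (unadjusted p = 0.00114 for the change). RGS2, a regulator of G protein signaling, had 11 and 8.56 CPM in SMARCB1 Dox against 29.2 to 58.2 CPM in the other 6 libraries. ZFYVE26, a protein of autophagy and cytokinesis, had 102 and 129 CPM in SMARCB1 Dox, 225 and 245 CPM in SMARCB1 DMSO and 326 to 405 CPM in the GFP line.

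FILIP1L, a regulator of cell migration, had 14.7 and 14.4 CPM in SMARCB1 Dox against at most 3.58 CPM in the other 6 libraries. EMILIN2, an elastic fiber glycoprotein, had 6.53 and 4.76 CPM in SMARCB1 Dox, 0 counts in GFP Dox and at most 0.623 CPM with DMSO. In both genes the SMARCB1 Dox libraries stood above all others, on few counts in those others.

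Of the 27 narrower genes, 15 were lower and 12 higher in the SMARCB1 line. The 6 narrower and 6 wider genes of the naming rule have the smallest p among all 814, whatever their counts. SLC39A8, with 1 count in each SMARCB1 DMSO library, is thus not among the 27. In these 6 narrower genes, SMARCB1 DMSO was the low group. MCAM, the melanoma cell adhesion molecule, had 1 and 0.467 CPM in SMARCB1 DMSO, 4.43 and 3.49 CPM in SMARCB1 Dox and 31.5 to 46 CPM in the GFP line. Its line difference was -5.61 with DMSO and -3.32 with Dox (unadjusted p = 0.000993). LAYN, the hyaluronan receptor layilin, had 1.83 and 2.88 CPM, 11.7 and 6.66 CPM, and 59.5 to 73.5 CPM in the same order. SLC39A8, a zinc and manganese importer, had 0.167 and 0.0779 CPM in SMARCB1 DMSO, 3.01 and 1.74 CPM in SMARCB1 Dox and 17.2 to 34.2 CPM in the GFP line, so the lines stayed apart in both states.

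For IL6R and KRT80 the difference seen with DMSO was no longer called with Dox. IL6R, the interleukin-6 receptor, had 1.83 and 1.79 CPM in SMARCB1 DMSO and 12.6 and 11.1 CPM in GFP DMSO, against 6.02 and 7.29 CPM and 7.44 and 8.87 CPM with Dox (log2 -2.70 and -0.30, unadjusted p = 0.000895). KRT80, a keratin, had 0.5 and 0.701 CPM against 6.42 and 9.73 CPM with DMSO, and 3.93 and 4.28 CPM against 8.44 and 3.99 CPM with Dox, where the libraries overlapped. Without GFP Dox replicate 1, its difference with Dox was 0.04 in place of -0.59. PLEKHA2, a phosphoinositide-binding adaptor, had a difference of -3.17 with DMSO and -1.54 with Dox. PDGFRA followed the same pattern, -6.77 with DMSO and -4.34 with Dox (unadjusted p = 0.00246).

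**Figure D5:**
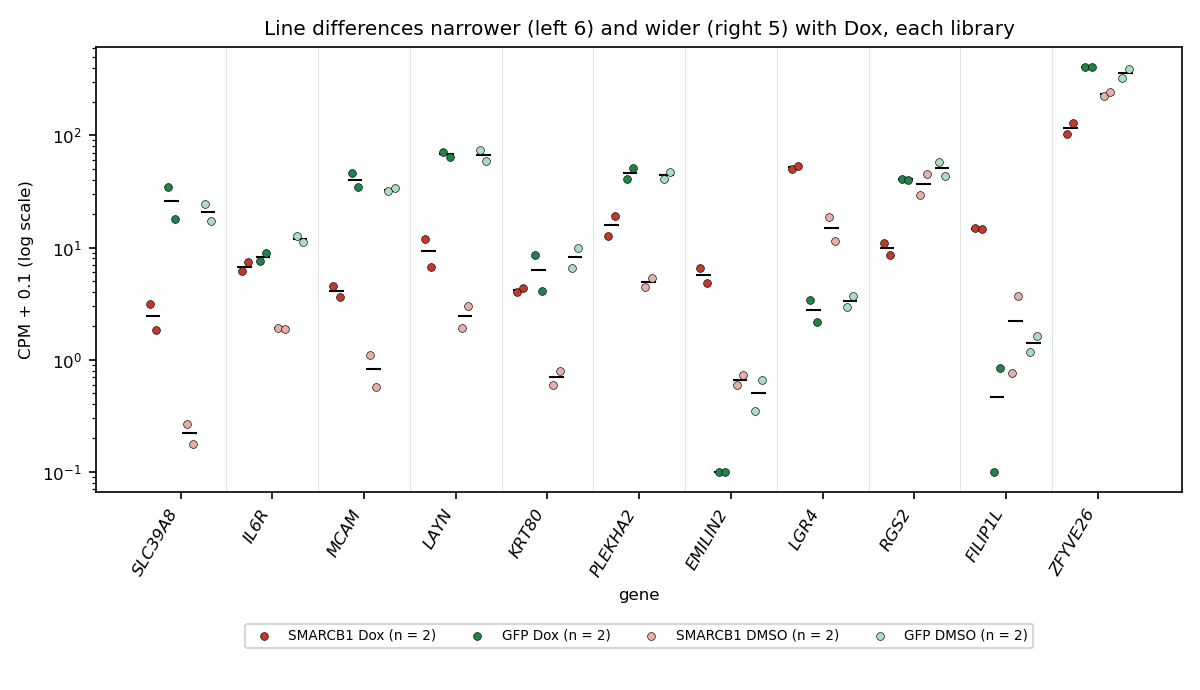
CPM + 0.1 on a log axis for the 6 genes with the smallest p among line differences narrower with Dox (left) and for 5 of the 6 among those wider with Dox (right), with 1 point per library, 2 per group, and a bar at the mean. In the narrower genes the pale SMARCB1 DMSO points are lowest, as for MCAM at 1 and 0.467 CPM, and in LGR4, FILIP1L and EMILIN2 the SMARCB1 Dox points are highest.

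Some list members with no called difference in DMSO also had a small unadjusted p for the change between the states. ASS1 was higher in the SMARCB1 line with Dox by log2 1.24 and lower by 0.52 with DMSO (9.67 and 9.43 CPM against 13.2 and 14.1 CPM), with an unadjusted p of 0.000647. AXL had a difference of 1.36 with Dox and 0.19 with DMSO (40.2 and 37.9 CPM against 34.2 and 34.2 CPM, unadjusted p = 0.00267). CCNE2 had 1.43 with Dox and -0.57 with DMSO (unadjusted p = 0.00116). All had an adjusted p of 0.977 or above.

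Of 14 transcripts that were also measured by qPCR, 8 had enough counts to be tested. SKAP1, an adaptor of T cell receptor signaling, had 30.1 and 34.9 CPM in SMARCB1 Dox against 1.82 and 1.33 CPM in GFP Dox (log2 4.36 ± 0.42 SE), and with DMSO 63 and 72.1 CPM against 3.7 and 1.6 CPM. CHST2, a carbohydrate sulfotransferase, had 1.34 and 0.951 CPM against 47 and 42.3 CPM with Dox. With DMSO it had 0 and 0.156 CPM against 27.7 and 38.4 CPM. Its line difference was thus narrower with Dox, on 2 pooled counts in SMARCB1 DMSO (unadjusted p = 0.00364 for the change). KBTBD7, a substrate adaptor of a ubiquitin ligase, had 9.62 and 10.6 CPM against 23.7 and 20.3 CPM with Dox (log2 -1.12 ± 0.30 SE, adjusted p = 0.0351, and 0.111 without GFP Dox replicate 1) and a difference of -0.01 with DMSO. ANGPT2, a ligand of vessel remodeling, had 162 and 152 CPM against 203 and 212 CPM with Dox and 449 and 345 CPM against 251 and 223 CPM with DMSO, and was called in neither state. GAPDH, GFPT1, FSTL3 and IFIT1 were not called with Dox (log2 0.22, 0.16, -0.17 and -1.42). For 3 of the 8, CHST2, KBTBD7 and ANGPT2, the unadjusted p for the change between the states was below 0.05, against 443 of all 11097 genes. The paper drew many of these transcripts from those whose translation efficiency differed upon SMARCB1 re-expression in this same experiment. Small p-values among them were thus favored in advance and are no independent test. Each had an adjusted p of 0.981.

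The coding sequences of the called genes were compared with those of all genes. The median coding length was 1819 bases for genes higher in the SMARCB1 line with Dox, 1777 for those lower and 1574 over all genes tested. The median GC content was 51.6%, 55.8% and 52.1% in the same order. Over all genes the Spearman correlation of the line difference with GC content was 0.01 and with coding length -0.08, values that describe these libraries and carry no test.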

How the data were processed

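Ribosome profiling of the 4 Dox libraries, with the 4 DMSO libraries for comparison, was analysed as deposited. The authors isolated ribosomes with RiboLace, aligned reads with STAR and, with the intersection-strict setting of HTSeq over GENCODE 42 coding sequences (hg38 per the labels), deposited raw counts per gene. The handling of adapters, ribosomal RNA and strand is not given in the sources used here. The 5 summary rows per file entered neither totals nor tests. Their reads off coding sequences were 36.6% to 45.9% of unique reads. Gene names and GRCh38 positions came from GENCODE 44, and 311 of 20719 IDs had no match.

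R 4.3.3 was used. Counts were filtered with filterByExpr in edgeR 4.0.16, TMM-scaled and modelled by group with glmQLFit on the 8 libraries together, which shares 1 estimate of the spread. Contrasts were the line difference with Dox, with DMSO, their difference and their average. Calls needed an adjusted p below 0.05 and a fold above 2. The method was tested on simulated data. Alternatives were RLE size factors, library size only, DESeq2 1.42.0, no filter, a block for the replicate number, robust fitting, thinning to the smallest library, a fit of the compared groups alone, a minimum of 10 counts in each library, and leaving out each library. Whether the duplicates are separate cultures is not stated, so p-values may measure technical spread only. Replicates differed by more than sampling noise.

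The text names SMARCB1, the 12 genes higher and 12 lower with the smallest p whose Dox libraries did not overlap, the 6 narrower and 6 wider genes with the smallest p of the change, the qPCR transcripts and up to 3 called members of each list. Some genes are not reported here, so fewer may be named or plotted than a count holds. Other called list members, neighbors on the chromosome and members that did not pass were added after their values were seen. The comparison, lists and rules were chosen with earlier results of these data known. Promoter windows from RefSeq matched 9103 of 11097 tested genes by symbol.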

Additional observations from a re-analysis of the deposited data

Results flagged for a closer look

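With DESeq2, SMARCB1 was the 1 gene called for a line difference that differed between Dox and DMSO. DESeq2's Wald test gave a change of 12.47 on the log2 scale with an adjusted p of 0.00958, on 0 counts in 3 of the 4 groups. Counts were present in 2 of 2 SMARCB1 Dox libraries. In the same data, edgeR's quasi-likelihood test did not call it, and without a filter on low counts edgeR called 15 genes. With 2 libraries in each group, no test for an outlying library within a group applies.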

How the results depend on the processing

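The count of genes called between the lines with Dox was 613 to 833 under RLE size factors, library size only, DESeq2, no filter, robust fitting, thinning and the replicate block, 514 with only the Dox groups in the fit and 377 (196 higher, 181 lower) with at least 10 counts in every library, a filter that removes genes silent in a line. Without 1 library it ranged from 348 to 1372. Under the filter of 10 counts, 288 genes were called with DMSO, 419 in the average and 212 in the same direction in both states, and 236 were wider with Dox. Leaving out 1 library gave 299 to 668 calls with DMSO (324 without GFP DMSO replicate 1 and 299 without replicate 2), 268 to 441 in both states (268 without GFP DMSO replicate 2) and 337 to 631 wider. The change of the line difference was called for 0 genes in the reported fit, 1 with DESeq2, 15 without a filter (10 up, 5 down) and 0 to 105 without 1 library, the 105 (38 up, 67 down) without GFP Dox replicate 2. Among genes named in the report, these included LAMA4, IFITM2, FILIP1L and CCNE2 without that library, and LAYN, SLC39A8 and FILIP1L without a filter. The cause was not tested.

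Library size only divided the calls with Dox into 362 higher and 251 lower and moved the median of all genes by 0.11 on the log2 scale. Leaving out 1 library turned the sign of a few Dox differences, which then ranged on the log2 scale from -1.04 to 0.035 for KRT80, -0.021 to 0.51 for GAPDH, -0.11 to 0.64 for MT-CO1 and -0.66 to 0.55 for FSTL3 (turned without GFP Dox replicate 1), from -2.21 to 0.70 for IFIT1 and -0.17 to 0.64 for MT-ND6 (without GFP Dox replicate 2, MT-ND6 also without SMARCB1 Dox replicate 1) and from -0.0098 to 0.16 for RPLP2 (without SMARCB1 Dox replicate 2). None of these was called. Among genes named by the rule, ASS1, CCNE2, ERBB3, HMGCS1, IFI6, IGFBP3, KBTBD7, PCGF5, PHC2 and PLEKHA2 kept their direction and lost their call under at least 1 alternative, and without GFP Dox replicate 1 so did AXIN2, COL3A1, COL5A2, CSF1R, EPHA5, EPHB1, FZD7, HOXD9, ITGA3, OSR2 and SLC7A11. With the replicate number as a block, 734 genes were called with Dox and 0 for the change. Same-numbered samples deviated together with correlations of 0.045 to 0.28, so the numbers were not taken as pairs.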
